A study of Mus musculus with 2 samples.

Results

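The genes described here encode the proteins of the cytosolic ribosome, in dendritic cells grown from mouse bone marrow with GM-CSF and then treated with LPS (lipopolysaccharide of bacterial outer membranes, which activates them). Members were all probe sets that the platform annotation assigned to exactly 1 gene with a symbol of Rpl or Rps followed by a number and an optional letter, or to Rplp0, Rplp1, Rplp2 or Rpsa, without the Rps6k kinases and without pseudogene symbols. This gave 100 probe sets of 46 genes, of 34945 probe sets and 18193 genes named by the same annotation. Of the 46 genes, 24 belong to the large and 22 to the small ribosomal subunit. The 2 arrays held 1 sample of wild-type C57BL/6J cells with LPS and 1 sample of miR-155-/- C57BL/6J cells with LPS. Both cultures had 7 days in medium with 20 ng/ml recombinant murine GM-CSF and then received 10 ng/ml LPS. Untreated cells were not analysed here, and the response to LPS cannot be read from these arrays. The labels call the cells dendritic cells, except the growth protocol, which speaks of macrophages. How many mice were used, whether they were pooled and how long LPS was applied was not stated in those labels.

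Each cytosolic ribosome joins a small subunit, which holds the mRNA and decodes it, to a large subunit, which forms the peptide bond. Most of these proteins are present in equal number in every ribosome, and their genes are transcribed at high and coordinated levels in most cells. Their mRNAs typically begin with a C followed by a run of pyrimidines, the terminal oligopyrimidine (TOP) tract, through which mTORC1 and the RNA-binding protein LARP1 adjust their translation and stability. The knockout lacks miR-155, a microRNA induced by LPS in myeloid cells that represses transcripts through pairing with its seed. The comparison addresses how the transcripts of activated dendritic cells differ when this microRNA is absent. Its mature 5p strand (RefSeq, GRCm38.p6, chr16:84714143-84714165, plus strand) is shown with the seed, bases 2 to 8, in capitals.
mmu-miR-155-5p: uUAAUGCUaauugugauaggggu

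The start sites of the members that lay at either end of the range of differences are shown because TOP tracts are the sequence feature by which this gene family is controlled together. RefSeq start windows (GRCm38.p6) were found for 40 of the 46 genes. Each line gives 15 bases before and 15 bases from the annotated start, 5′ to 3′ on the gene's strand, with the longest run of at least 5 pyrimidines in capitals. The first 5 genes had the highest and the next 3 the lowest differences among those with 1 annotated start, and the last 3 hold the longest runs of any member (21, 19 and 18 bases).
Rps6, chr4:86857353-86857382, minus strand: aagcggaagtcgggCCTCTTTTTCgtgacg
Rpl12, chr2:32961697-32961726, plus strand: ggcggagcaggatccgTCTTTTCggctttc
Rpl37, chr15:5116598-5116627, plus strand: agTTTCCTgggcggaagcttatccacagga
Rpl14, chr9:120571502-120571531, plus strand: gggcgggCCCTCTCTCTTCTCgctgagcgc
Rps27, chr3:90213634-90213663, minus strand: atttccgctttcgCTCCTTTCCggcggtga
Rpl39l, chr16:10170213-10170242, plus strand: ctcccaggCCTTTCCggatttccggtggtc
Rpl41, chr10:128549154-128549183, minus strand: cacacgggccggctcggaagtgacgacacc
Rps26, chr10:128626492-128626521, minus strand: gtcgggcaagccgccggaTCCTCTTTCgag
Rpl7a, chr2:26910792-26910821, plus strand: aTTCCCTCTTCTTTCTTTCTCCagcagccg
Rpl27a, chr7:109519180-109519209, plus strand: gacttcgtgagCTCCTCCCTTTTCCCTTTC
Rpl35, chr2:39005117-39005146, minus strand: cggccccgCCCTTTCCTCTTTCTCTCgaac
A C at the annotated start followed by 4 further pyrimidines was present in 8 of the 40 member genes (20%), against 813 of 27025 genes in the promoter table (3.01%). A run of 8 or more pyrimidines anywhere in the 30 bases was present in 18 of 40 members (45%) and in 13.9% of all genes. The letters CCGGAAG, the core of the ETS and GABP binding motif, were searched on both strands of the whole window of 250 bases before and 50 after the start, where the reverse strand form can overlap a pyrimidine run. They were found in 20 of 40 members (50%) and in 9.93% of all genes. TATAAA, searched the same way, was found in 5 of 40 members (12.5%) and in 15.7% of all genes. Rpl41, whose mRNA encodes a very short basic peptide, had no run of 5 pyrimidines in its printed window. These matches describe annotated start sites, which need not be the starts used in these cells.

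The deposited signals had no common scale. The medians over probe sets, controls left out, were 58.4 (wild type) and 78.3 (knockout), and values were therefore quantile normalized. This gives both arrays the same set of values, so that each difference reflects a change of rank. A shift shared by genes of similar signal is largely removed by this step. Signals below are normalized intensities, each difference is the log2 signal of the knockout less that of the wild type, and the floor is the median of all values, 67.6. Mir155hg, which carries miR-155, gave a signal of 1136 in the wild type against 159, 7.13-fold lower in the knockout. Where its probe set lies relative to the deletion was not known from the labels, so this value is a limited check of the genotype. The dendritic cell marker genes Itgax (4290.5 in wild type, 5331 in knockout) and H2-Ab1 (4407 and 3896) lay well above the floor, and so did the macrophage marker gene Adgre1 (7458 and 8568). Flt3 was above the floor in the knockout only. In the list of lymphoid, mast cell and basophil markers, 10 of 11 measured genes were lower in the knockout, with a median difference of -0.90. However, 6 of the 11 were above the floor in the wild type only, and such genes can only be lower in the knockout. Ighm, the lowest of the list, was higher at 3 of its 4 probe sets. Among all measured genes 48.5% were lower. Granulocyte markers were lower in 7 of 10 (median -0.35), 1 of them above the floor in the wild type only. Dendritic cell markers were lower in 13 of 16 (median -0.23), and macrophage markers were higher in 6 of 10 (median 0.20). The part of these markers in the ribosomal protein values was not tested, and in bulk RNA fewer cells of a type cannot be told apart from less RNA per cell. Since each genotype had a single array, no replicate spread and no p-value could be given. The available error is how far probe sets of the same gene differed, an SD of 0.29 over all genes and 0.23 over 59 probe sets of 19 ribosomal protein genes.

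Ribosomal protein transcripts had nearly the same normalized signal in knockout and wild-type dendritic cells. Of the 43 genes above the floor on at least 1 array, 24 were higher and 19 lower in the knockout, against 51.5% higher and 48.5% lower among the 11878 measured genes. Their median difference was 0.01, a 1.01-fold difference, and the median of all measured genes was also 0.01. None of the 43 reached 2-fold in either direction, where 1.19% of all measured genes did, 0.572% higher and 0.615% lower, a share at which a set of this size need not hold any. At 1.5-fold 2 members passed, against 8.67% of all genes. Rps6 was the higher one, where 4.57% of genes passed, and Rpl39l the lower one, where 4.1% did. The interquartile range of the members' differences was -0.05 to 0.09, and that of all measured genes was -0.18 to 0.20. An absolute difference under the probe set SD was seen in 36 of the 43 members and in 67.3% of all measured genes. With loess or with a constant shift of the arrays, the members' median lay at -0.06 to -0.11 relative to that of all genes.

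**Figure D1:**
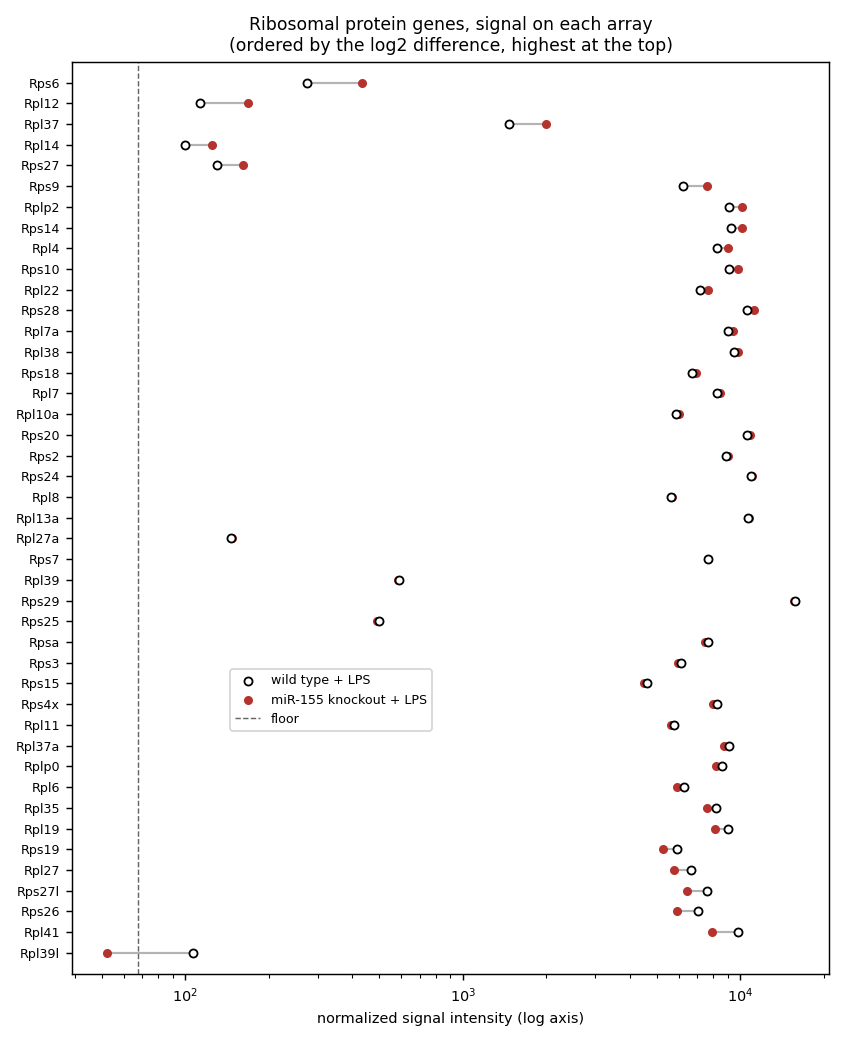
Normalized signal intensity (log axis) of the 43 measured ribosomal protein genes on the wild-type array (open circles) and in the knockout (filled circles), with 1 array per genotype and genes ordered by their log2 difference. Most pairs of circles overlap between about 4491 and 15731, and the wide gaps lie with genes read by dim probe sets, such as Rpl12 and Rpl39l.

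Part of the narrow spread goes with signal. Of the 43 genes, 34 lay in the brightest 10% of measured genes (mean signal above 1734), where differences were smaller for genes in general. In that range the interquartile range was -0.07 to 0.05 for the 34 members and -0.11 to 0.14 for all 1188 genes. There 18 members were higher and 16 lower, against 52.9% and 47.0% of all genes in the range, and the medians were 0.01 and 0.02. An absolute difference under the probe set SD of 0.29 was seen in 33 of these 34 members and in 82.9% of all genes of the range. The remaining 9 members, read by dimmer probe sets, ranged from -0.65 to 0.65. Within that SD lay 3 of them (33.3%), against 65.5% of all 10690 measured genes below the brightest 10%. Above 0 lay 6 of the 9, or 66.7%, where 51.3% of those dimmer genes did. The median was 0.32 for the 9 members and 0.01 for those genes, so the median near 0 of all 43 members does not describe these 9. This contrast was not tested. The lowest signal was 4491 among the 34 bright members and 1411 among all genes of the brightest 10%, so these 2 sets were not matched in signal. Whether bright signals were compressed was not tested. A small difference on 1 array per genotype does not show that transcripts were equal.

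**Figure D2:**
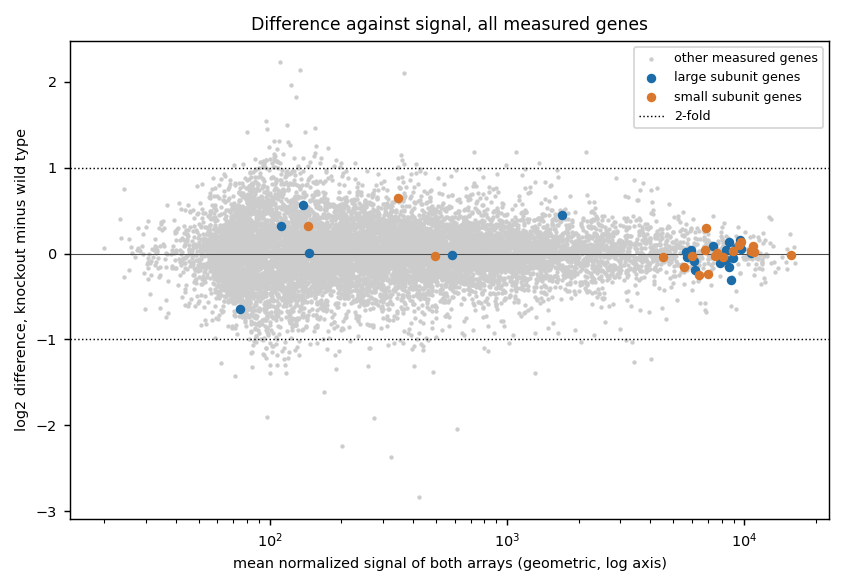
Log2 difference (knockout minus wild type, vertical axis) against the mean normalized signal of both arrays (log axis) for all 11878 measured genes in grey, with large subunit genes in blue and small subunit genes in orange. The 34 bright members form a compact cloud around 0 at the right, the 9 dimmer ones scatter between -0.65 and 0.65, and none crosses the dotted 2-fold lines.

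Large and small subunit genes had the same median to 2 decimals. In the large subunit, 13 of 23 measured genes lay above 0 and 10 below, around a median of 0.01, over a range from -0.65 to 0.57. In the small subunit, 11 of 20 lay above 0 and 9 below, around a median of 0.01, over a range from -0.25 to 0.65. The stalk of the large subunit, which recruits the elongation factors, was read by Rplp0 and Rplp2. Rplp0, the central stalk protein, read 8599.8 against 8186 in the knockout, a difference of -0.07. Rplp2, an acidic protein bound to it, had signals of 9087 and 10138, a difference of 0.16. The stalk genes thus lay on opposite sides of 0, each within the probe set SD. Rpl12, which encodes a protein at the stalk base, had signals of 113 and 168 and a difference of 0.57.

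Among other large subunit genes, Rpl4, which encodes a protein lining the exit tunnel, had signals of 8232 and 9014, a difference of 0.13. Rpl7a (9040.5 and 9435), Rpl38 (9464 and 9826), Rpl7 (8208 and 8429), Rpl10a (5880.2 and 6026) and Rpl8 (5631 and 5682) were higher by 0.06 or less. Rpl11, which with Rpl5 and 5S RNA can bind the p53 regulator MDM2, had signals of 5783 and 5619, a difference of -0.04. Rpl6 (6277 and 5922, -0.08), Rpl37a (9105 and 8758, -0.06) and Rpl35 (8154 and 7553, -0.11) also lay slightly below 0. Rpl19 had signals of 9052 and 8119.8 with a difference of -0.16. Rpl27 had signals of 6625 and 5783 with a difference of -0.20, although 2 of its 3 probe sets were higher. At the probe sets used, all of these genes lay within the probe set SD. Rpl41 was the exception at high signal, with 9774 in wild-type and 7873 in knockout cells. Its difference of -0.31, a 1.24-fold lower signal, was just past that SD. It was -0.33 with median centring and -0.39 with loess. With scaling on hybridisation controls it was -0.23 (median of all genes 0.23), and on the deposited values 0.10 (median of all genes 0.54). All 4 of its probe sets were lower in the knockout, by -0.06 to -0.47, and most are of a type that can bind related sequences.

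In the small subunit, the genes with the highest signals included Rps29 (15731 and 15559, difference -0.02), Rps24 (10921 and 11036, 0.02), Rps20 (10562 and 10801, 0.03) and Rps28 (10533 and 11178, 0.09). Rpl13a of the large subunit was alike, with 10664 and 10739 and a difference of 0.01. Signals of different probe sets depend on their probes and do not rank the transcripts. Rps14, Rps10 and Rps9 were the higher ones among bright small subunit genes, with differences of 0.13 (9255 and 10154), 0.10 (9114 and 9774) and 0.29 (6218 and 7610.1). Each was lower at 1 or more of its other probe sets. Rpsa, which encodes a protein also known as the laminin receptor, had signals of 7631 and 7458, a difference of -0.03. Rps4x, an X-linked gene in the mouse, had 8225 and 7993, a difference of -0.04. Rps19, mutated in human Diamond-Blackfan anaemia, had 5888 and 5269.8, a difference of -0.16. Rps26, another gene of that human disease, whose protein sits at the mRNA exit channel, had 7038 and 5911, a difference of -0.25. Each of these genes again lay within the probe set SD.

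The 5 highest differences came from probe sets below the brightest 10%, and other probe sets that name the same gene together with a pseudogene or other copy gave different values. Rps6 encodes the protein that S6 kinases phosphorylate downstream of mTORC1. Its only single-gene probe set above the floor on both arrays had signals of 276 and 432, a difference of 0.65 and the highest of all members. Of 9 measured probe sets naming Rps6 with its pseudogene Rps6-ps4, 7 were higher, 1 was lower and 1 equal, with a median of 0.14, and the one with the highest signal (10193 and 10770) had a difference of 0.08. Those 9 ranged from -0.16 to 0.57, so some were nearly as high as the single-gene probe set and others were not. Rpl12, at 0.57, had 2 shared probe sets with differences of -0.12 and 0.06. Rpl14 had signals of 99.8 and 124.7, a difference of 0.32, and its 5 shared probe sets had a median of -0.06, with 4 of 5 lower. Rps27 had signals of 129.7 and 161.7, also a difference of 0.32, and its shared probe set, bright at 5063 and 4166, was lower by -0.28. Rpl37 stood at an intermediate signal, 1464 in wild-type and 1993 in knockout cells, a difference of 0.45. Its 3 shared probe sets had differences from -0.33 to 0.26. For each of these 5 genes the shared probe set with the highest signal had a smaller difference or one of opposite sign. Shared probe sets also read other gene copies and are no members.

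Rpl27a, Rpl39 and Rps25 were also read by probe sets below the brightest 10%, with differences near 0. Rpl27a, at 146 and 147, differed by 0.01. Rpl39, at 589 and 584, differed by -0.01. Rps25, whose protein takes part in initiation at viral internal entry sites, had 499 and 489.6, a difference of -0.03. Their brighter shared probe sets had differences of 0.06, 0.21 and -0.03. Rps16 lay below the floor on both arrays at its only single-gene probe set (7.51 and 2.88), while the brighter of 2 shared probe sets had 8315 and 8254, a difference of -0.01. The Rps16 transcript was thus below the floor at one probe set and among the bright signals at another that also reads its copies.

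Of the 4 paralogs among the members, 2 were measured, Rps27l on both arrays and Rpl39l through the wild-type array only. A gene above the floor in the wild type only can only be lower in the knockout, so the direction of Rpl39l was set by the floor. Among all measured genes 48.5% were lower. Rps27l, a close paralog of Rps27 described as inducible by p53, read 7586 against 6429 in the knockout, a difference of -0.24. All 3 of its probe sets were lower in the knockout, by -0.37, -0.24 and -0.21, and each is of a type that can bind related sequences or several transcripts. Rpl39l, a paralog of Rpl39 best known from male germ cells, was above the floor in wild type only, with 106 against 52.2, and was at least 1.57-fold lower in the knockout. This was the lowest difference of all members, from 1 probe set near the floor of 67.6. Rpl3l, the striated muscle paralog of Rpl3 (8.46 and 45.5), and Rps4l, a paralog of Rps4x (15.4 and 29.0), lay below the floor on both arrays. Of the paralogs with other symbol forms, Rpl22l1 had signals of 2267 and 2062 (-0.14) and Rpl7l1 1068 and 1118 (0.07), and neither is a member by the rule. Fau, which encodes the small subunit protein S30 fused to a ubiquitin-like domain, also lies outside the symbol rule and had 5002 against 3798, a difference of -0.40.

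Ribosomal protein genes have many processed pseudogenes. Marks for probes with more than 1 target were common among the member probe sets, and their source was not tested. Of the 100 member probe sets, 43 end in _x_at or _s_at (43.0%), the Affymetrix marks for probes that match several sequences or several transcripts, against 11.1% of all probe sets that name 1 gene. A further 110 probe sets named a ribosomal protein gene together with other genes and were not members. Above the floor on both arrays were 82 member probe sets, of which 41 were higher and 41 lower, against 50.8% and 49.1% of all 17602 such probe sets. None of the 82 reached 2-fold, where 1.07% of all such probe sets did, 0.483% higher and 0.585% lower. Probe sets ending in _x_at were higher in 23 of 38 cases (median 0.02), a share of 60.5% against 59.0% of all _x_at probe sets. Those ending in _a_at, which read transcripts of 1 gene, were higher in 10 of 25 (median -0.04), against 48.4% of all _a_at probe sets. The unmarked ones were higher in 7 of 16 (median -0.02), against 50.3% of all unmarked probe sets. The unmarked member probe sets had the widest interquartile range of these types, 0.51, against 0.16 for the _x_at type. Over all single-gene probe sets above the floor on both arrays the 2 types were alike, at 0.40 and 0.39. The lowest signal was 83.5 among unmarked members and 227 among _x_at members, and the part of signal in the contrast was not tested.

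Probe sets of the same gene often disagreed in sign. Of 19 genes with 2 or more probe sets above the floor on both arrays, 3 were higher at all of them (Rps7, Rps20 and Rps24), 3 lower at all of them (Rpl41, Rps15 and Rps27l), and 13 were mixed. Rps10 spread most. Its _x_at probe set with signals of 1724 and 3431 had a difference of 0.99, a 1.99-fold difference and the one nearest to 2-fold, whereas the other 4 ranged from -0.16 to 0.10. The 3 probe sets of Rps9 had differences of 0.46, 0.29 and -0.20. Rps15, whose protein lies near the decoding site, had 4601 and 4491 at the probe set used (-0.04) and 4828 and 3105 at the other (-0.64), so both were lower but by unequal amounts. Rpl22, a protein known to bind viral and cellular RNA hairpins, had 7173 and 7618 at the probe set used (0.09) and 3610 and 2662 at another (-0.44). Rps3, a protein of the mRNA entry channel, had 6108 and 5962 (-0.03) at its bright and 149.6 and 200.7 (0.42) at its dim probe set. For the 13 mixed genes, among them Rps10, Rps9, Rpl22, Rps3, Rpl27 and Rps14, the choice of probe set decided the sign of the value.

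**Figure D3:**
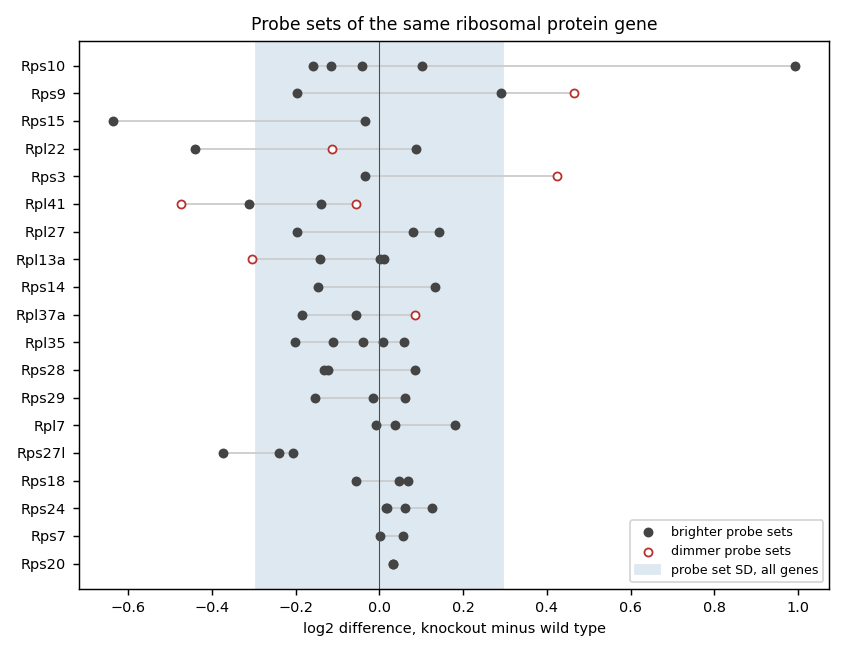
Log2 differences (knockout minus wild type) of every probe set above the floor on both arrays, for the 19 ribosomal protein genes with at least 2 of them, ordered by their spread. Filled points are probe sets with a mean signal above 1734 and open points dimmer ones; the shaded band is the probe set SD of all genes, 0.29, and the single point at 0.99 belongs to Rps10.

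Whether the ribosomal protein genes lay at or under the bulk of genes depended on the scaling. Quantile normalization gave 24 higher and 19 lower. On the deposited values 42 members lay above 0 and 1 below, with a median of 0.45, where 92.9% of all measured genes lay above 0 at a median of 0.54. There 11 members lay above that median and 32 below it. Scaling on hybridisation controls gave 36 above and 7 below 0, at a median of 0.12, where 76.7% of all genes lay above 0 at a median of 0.23. Relative to that median 8 members lay above and 35 below. Centring each array on its median gave 25 above and 18 below 0, at a median of 0.03, where 67.7% of all genes lay above 0 at a median of 0.14, and again 8 members exceeded that median and 35 did not. With loess, 14 lay above and 29 below 0, around a median of -0.05, where 52.0% of all genes lay above 0 at a median of 0.01, and 12 members exceeded that median and 31 did not. With quantile normalization 22 members lay above the median of all genes and 21 below. Relative to the median of all genes the members thus lay at 0.00 with quantile normalization, at -0.06 with loess, and at -0.09 to -0.11 under the settings that shift each array by a constant. Those settings share 1 set of ratios and are not separate checks. Whether the offset of the members differs from 0 was not tested.

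**Figure D4:**
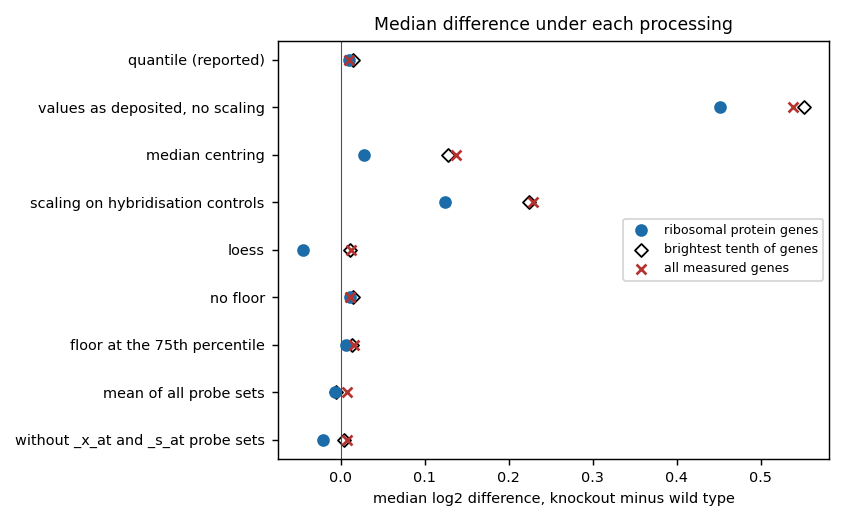
Median log2 difference (knockout minus wild type) of ribosomal protein genes (circles), the brightest 10% of measured genes (diamonds) and all measured genes (crosses) under each processing. The markers coincide near 0 with quantile normalization, and the ribosomal protein median lies to the left of the others by 0.06 to 0.11 with loess or with a constant shift of the arrays.

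Other genes of the translation machinery were described from lists. Of 16 measured elongation factors and other transcripts known for TOP tracts, 6 lay above and 10 below 0, around a median of -0.04 and none past 2-fold. Eef1a1, which brings aminoacyl-tRNA to the ribosome, had 12147 and 11933 (-0.03), Tpt1 13394 and 12383 (-0.11), Vim, the intermediate filament gene with the highest signal of the list, 14908 and 15430 (0.05), Btf3 3986 and 4856 (0.28) and Hnrnpa1 1670 and 1277 (-0.39). Of 29 initiation factor genes, 18 lay above and 11 below 0, around a median of 0.04. Eif5b, the subunit-joining factor, had 801 and 1112 (0.47), Eif4e, the cap-binding protein gene, 1515 and 1118 (-0.44) and Eif5a 9392 and 10399 (0.15). Eif4e was lower at 2 of 4 probe sets, Eif5b higher at 1 of 3 and Hnrnpa1 higher at 2 of 3. Btf3 and Eif5a were each higher at 1 of 2 probe sets and Vim at 2 of 3. The probe sets of all these genes thus disagreed in sign.

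Ribosome biogenesis factors, which process rRNA and assemble subunits in the nucleolus, were higher in 38 of 62 measured genes (61.3%), against 51.5% of all genes, with a median of 0.09. None passed 2-fold. Gar1, a protein of the pseudouridylation complex, had the highest difference, 178 against 303 (0.77), and Sbds, which helps release Eif6 from the large subunit, the lowest, 1247 against 938 (-0.41). Ncl, the nucleolin gene, had 2456 and 2318 (-0.08). Myc, a transcription factor that drives ribosome production, had 89.5 and 141 (0.66) at 1 dim probe set. RNA polymerase I and III genes were higher in 16 and lower in 15 of 31, with a median of 0.00, from Polr3d (192 and 129.5, -0.57) to Gtf3c5 (124 and 204, 0.71), and Polr1d had 2364 and 2671 (0.18). Genes of mTORC1 and TOP control were higher in 10 of 16 (median 0.08). Ddit4, an inhibitor of mTORC1, had 258 and 143 (-0.85), Deptor, another inhibitor, 184 and 284 (0.62, with 3 of 3 probe sets higher), Rheb, its activator, 1968 and 2459 (0.32) and Larp1 1269 and 1335 (0.07). Host transcripts of small nucleolar RNAs were lower in 5 of 8 (median -0.08), from Snhg8 (386 and 317, -0.28) to Snhg7 (85.8 and 118, 0.46), with Snhg6 at 1951 and 1869 (-0.06). Proliferation genes, listed because growth and ribosome production go together, were higher in 15 of 19 (median 0.31), from Cdc20 (172 and 96.6, -0.83) to Rrm2 (222 and 391, 0.82), with Pcna at 3017 and 3318 (0.14). Bub1, 1 of the 19 proliferation genes, was likewise above the floor in the knockout only and could only be higher there. None of the lists in these paragraphs on the translation machinery holds a gene past 2-fold. With scaling on hybridisation controls, which put the median of all genes at 0.23, the medians below 0 took the other sign, at 0.08 for TOP transcripts and 0.19 for small nucleolar RNA hosts. No difference between lists was tested.

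**Figure D5:**
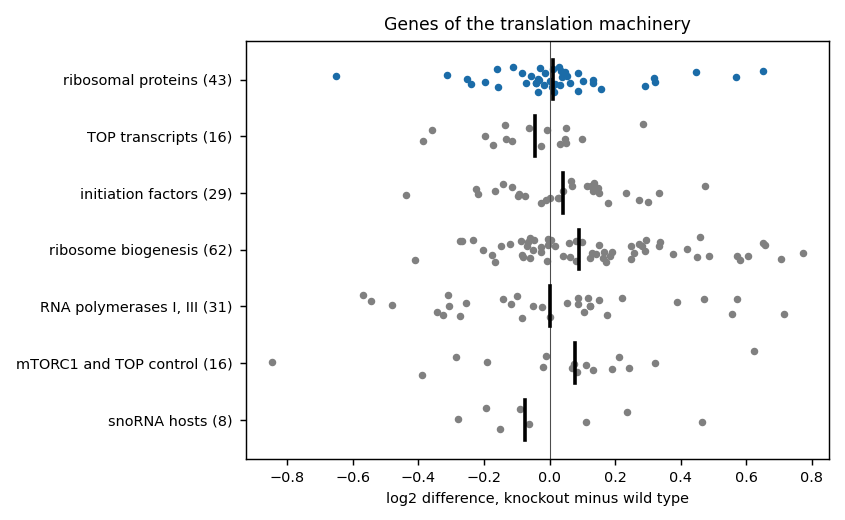
Log2 differences (knockout minus wild type) of the measured genes in each list of the translation machinery, 1 point per gene with a random vertical offset, the number of genes in brackets and the median as a black bar. The medians lie between -0.08 and 0.09, and the ribosomal protein genes crowd around 0.01 with a few dim genes outside.

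Members with and without an annotated TOP start overlapped in their differences. The 8 measured genes with a C and 4 pyrimidines at the start had a median difference of 0.13 and a range from -0.11 to 0.65. Of these 7 were higher and 1 lower, where 51.5% of all measured genes were higher. The other 30 with a start window had a median of -0.03, with 13 above and 17 below 0. Rps6, Rpl14 and Rps27, each read by a dim probe set, are among the 8, and Rpl35, with 18 pyrimidines around its start, is the lower one. The split depended on probe set and scaling. At their brightest shared probe sets Rpl14 (-0.25) and Rps27 (-0.28) were lower, while Rps6 was higher (0.08). Rps10 was lower at 3 of its 5 probe sets above the floor on both arrays. With loess Rpl38 (-0.06) and Rps10 (-0.005) also lay below 0. The ranges of both groups overlap, from -0.65 to 0.57 in the second, and no test was made. A second split was by a run of 8 or more pyrimidines in the 30 bases. The 18 measured genes with it, which include the 8 above, had a median of 0.05, with 13 higher and 5 lower. The 20 without it had a median of -0.03, with 7 higher and 13 lower. Their ranges also overlap (-0.25 to 0.65 and -0.65 to 0.57), and this split was not tested either.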

How the data were processed

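Per the labels' protocols, total RNA was extracted with Trizol and biotinylated cRNA was prepared from 6 ug of it for Affymetrix arrays. The authors deposited linear signal intensity values for 45101 probe sets on 2 arrays, 1 per genotype, per the file headers. How probe signals were summarised and scaled was not given in the sources used here, and the number of arrays limits the precision.

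After leaving out 64 controls, log2 values of 45037 probe sets were quantile normalized, since the medians differed by 34.1%, more than the limit of 10%. Values under the median (67.6) were set to it. A gene was measured where at least 1 array lay above this floor, and was represented by its probe set with the highest mean. Names came from the platform annotation, and all 46 member identifiers matched the RefSeq table (GRCm38.p6). Calls were by size only (2-fold). Named were the 10 highest and 10 lowest members, the 5 brightest, those at the floor, paralogs, stalk genes, the 5 with the widest probe set spread, the extremes and brightest gene of each list of related genes, and, chosen after seeing values, several members between them and single genes of those lists and of the marker lists. The steps were tested on simulated data. Members and lists were chosen with earlier results of these data known. Alternatives covered scaling, floor, probe set choice and fold. Python 3.11.15, numpy 2.4.6, pandas 2.3.3 and statsmodels 0.14.6 were used.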

Additional observations from a re-analysis of the deposited data

Results flagged for a closer look

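The 18S ribosomal RNA control probe sets lie outside the gene comparison and were higher on the knockout array than on the wild-type array. Their deposited signals were 95.1, 107.0 and 126.1 in wild type and 582, 389 and 457 in knockout, for the 5′, middle and 3′ probe sets. The ratios, not in log2, were 6.12, 3.64 and 3.62, with a median of 3.64. In deposited signal the median log2 difference was 0.45 for ribosomal protein genes and 0.54 for all measured genes. Plain ratios and log2 differences are on different scales. For Actb, 3′ over 5′ control signal was 1.28 (wild type) and 1.25 (knockout), and for Gapdh it was 0.843 and 0.883. The part of the 18S signal in the scaling of the arrays was not tested.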

How the results depend on the processing

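No paired analysis was possible because each genotype has 1 array, and no replicate could be left out. Of 166 alternative values of 21 results, 136 moved by less than the SD of single probe sets (for counts, by less than 1.5 times), which is a wide limit for the median of a list and does not show that it was stable. With scaling on hybridisation controls, for example, the biogenesis median went from 0.09 to 0.36 and that of other ribosome genes from -0.14 to 0.14. Without scaling, the median of ribosomal protein genes was 0.45, of large subunit genes 0.47 and of small subunit genes 0.44. There 42 genes were higher and 1 lower, 81 member probe sets were higher and 1 lower, and 3 of 43 genes (Rps6, Rpl12 and Rpl37) passed 2-fold, where 7.19% of all genes did. The list medians were then 0.47 for other ribosome genes, 0.40 for TOP transcripts, 0.61 for initiation, 0.65 for biogenesis, 0.62 for RNA polymerases I and III, 0.67 for mTORC1 and TOP control, 0.52 for small nucleolar RNA hosts, 0.85 for proliferation, 0.29 for dendritic cell, 0.59 for macrophage, 0.18 for granulocyte and -0.60 for lymphoid and mast cell markers. The constant shift between arrays by construction moves all of these. Scaling on hybridisation controls left 7 genes lower, and 65 member probe sets higher and 17 lower. Loess gave 14 genes higher and 29 lower, and 26 probe sets higher; the cause was not tested. A 1.5-fold limit passed 2 genes. With no floor 14.2% of all genes passed 2-fold and 3 of 46 members did (Rpl3l at 2.43, Rps16 at -1.38 and Rpl39l at -1.03, each with a signal under the floor), the probe set SD was 0.83 and the lymphoid and mast cell median was -1.28, since values below the floor then enter. In the brightest 10% of genes, an alternative added after seeing the data, the members' median was 0.01, with 18 higher and 16 lower. Averaging probe sets gave 21 higher and 22 lower, and leaving out _x_at and _s_at probe sets 17 and 21. The dim signals of 9 members limit what can be said of them.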

Other observations

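The probe sets that name a ribosomal protein gene together with other genes, mostly numbered gene copies and pseudogenes, were measured in 100 of 110 cases. Of these 48 were higher in the knockout, 51 lower and 1 equal, with a median difference of -0.005, and 88 lay within the probe set SD of 0.29. Among all single-gene probe sets above the floor on both arrays, 50.8% were higher, 49.1% lower and 66.8% within that SD. Of those with a mean signal above 1734, 81.3% lay within it. The shared probe sets read genes that the single-gene probe sets do not, among them Rpl3, Rpl5, Rpl10, Rpl23, Rpl26, Rplp1 and Rps23. The probe set of Rplp1, the other acidic stalk protein, which also names Gm13777, had signals of 8462 and 8541, a difference of 0.01. That of Rpl10, which also names Gm5621, had 9626 and 9217, a difference of -0.06, and that of Rps23, which also names Gm8618, 8038 and 7588, a difference of -0.08. Of the 100 shared probe sets 1 passed 2-fold, against 1.07% of all single-gene probe sets above the floor on both arrays. It was an _x_at probe set naming Rps12 and many copies (366 and 169, difference -1.12), and its brightest companion had 9844 and 10185 (0.05).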
